A study of Mus musculus with 36 samples.

Results

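Trem2, Tyrobp, Cst7, Clec7a, Lpl, Spp1, Gpnmb, Cd68, Axl and Atp6v0d2 are genes of disease-associated and phagocytic microglia, and they were described across naïve and injured mouse optic nerve and retina. They were taken by symbol from a count table of 55487 genes, in which each of the 10 had a row of its own. Bulk RNA-seq covered the unmyelinated optic nerve (UON, at the nerve head), the myelinated optic nerve (MON) and the retina. All mice were C57BL/6, 2 to 4 months old, with no transgene or deletion. Naïve mice were compared with mice whose optic nerve had been crushed (sampled at 3 D and 2 W) and with mice given microbeads into the anterior chamber of 1 eye, a model of raised eye pressure and glaucoma (sampled at 3 D, 2 W and 6 W). RNA of 2 female mice made 1 library and RNA of 2 male mice the other, so each of the 18 groups of tissue, treatment and time had n = 2 pools, and the pool and the sex cannot be told apart. The same mice gave all 3 tissues, and p-values measure the spread between pools that is left after a term for sex. Between naïve tissues that term also takes up the pool of mice. All injured groups of a tissue share its naïve pair.

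Microglia are the resident macrophages of the central nervous system. TREM2 is a surface receptor for lipids and lipoproteins that signals through the adaptor TYROBP (DAP12) and the kinase SYK. In degenerating white matter, microglia that sense debris through it are known to lower their resting genes and to switch on genes for phagocytosis, lysosomes and lipid handling. These include Clec7a, the β-glucan receptor dectin-1, Axl, a receptor for dead cells coated with GAS6, Cst7, an inhibitor of lysosomal proteases, Cd68, a lysosomal membrane glycoprotein, Lpl, the lipoprotein lipase, Gpnmb, a glycoprotein of lysosomes and melanosomes, and Spp1, the secreted protein osteopontin. Atp6v0d2 encodes a subunit of the proton pump in osteoclasts and some macrophages. None of these genes is expressed by microglia alone. Blood-derived macrophages can express them too, Spp1 and Lpl are also made by neurons, Axl by astrocytes and vessel cells, and Gpnmb by pigment cells.

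Total estimated counts per library, in units of 1e+06, ranged from 16.2 to 78.1, and the naïve MON pair was uneven (78.1 in the female pool and 17.8 in the male pool). Cell markers ordered the naïve tissues as their labels do, though UON, labelled unmyelinated, also held oligodendrocyte markers. The summed level of 10 oligodendrocyte markers was 124000 to 169000 CPM (counts per 1e+06 counts of the library) in naïve MON, 22100 to 28700 in naïve UON and 109 to 118 in naïve retina, and 10 photoreceptor markers summed to 67700 to 68200 CPM in naïve retina and to no more than 166 in naïve nerve. Pan-myeloid markers (12 genes) summed to 2360 to 2530 CPM in naïve MON, 1280 to 1450 in naïve UON and 52.5 to 58.1 in naïve retina. A gene was called where edgeR's quasi-likelihood test, with Benjamini-Hochberg adjustment over all genes tested, put it below 0.05 and its log2 fold change exceeded 1 in size. Where the libraries of different groups are said not to overlap, the share of all genes that did the same was not counted.

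On GRCm38 the genes lie apart: Trem2 on chromosome 17 (48346401 to 48354147, plus strand), Tyrobp on chromosome 7 (30413760 to 30417585, plus), Cst7 on chromosome 2 (150570415 to 150578944, plus), Clec7a on chromosome 6 (129461591 to 129472779, minus) and Lpl on chromosome 8 (68880491 to 68907448, plus). Spp1 is on chromosome 5 (104435118 to 104441050, plus), Gpnmb on chromosome 6 (49036546 to 49070929, plus), Cd68 on chromosome 11 (69664213 to 69666153, minus), Axl on chromosome 7 (25757273 to 25788705, minus) and Atp6v0d2 on chromosome 4 (19876841 to 19922605, minus). Spp1 shares part of its span with Gm42793, an annotated transcript on the same strand, so its reads could be split between the 2 entries. RefSeq promoters (GRCm38.p6) were held for 7 of the 10 genes, and the 250 bases upstream of each start were searched on both strands for the MiT/TFE M-box TCATGTG, the E-box CACGTG, the AP-1 site TGANTCA and the PU.1 site GAGGAAG. No window held the M-box or the E-box, which 3.25% and 6.02% of all 32851 promoters hold. PU.1, the factor that sets myeloid identity, had its letters in the windows of Trem2, Axl and the upstream start of Spp1, against 10.6% of all promoters. AP-1, the site of FOS and JUN, matched in Trem2 and at 2 places in Cd68, against 6.75% of all promoters. Trem2, Spp1, Cd68 and Axl are shown because their windows hold the matches. The sequences run 5′ to 3′ to the base before the RefSeq start, and capitals mark the matches.
Trem2, chr17:48346151-48346400, plus strand: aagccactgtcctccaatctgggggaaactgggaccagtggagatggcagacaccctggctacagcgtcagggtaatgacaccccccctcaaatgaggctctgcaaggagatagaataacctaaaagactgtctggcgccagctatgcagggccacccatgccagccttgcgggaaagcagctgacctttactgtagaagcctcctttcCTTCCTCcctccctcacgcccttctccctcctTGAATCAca
Spp1, chr5:104434861-104435110, plus strand: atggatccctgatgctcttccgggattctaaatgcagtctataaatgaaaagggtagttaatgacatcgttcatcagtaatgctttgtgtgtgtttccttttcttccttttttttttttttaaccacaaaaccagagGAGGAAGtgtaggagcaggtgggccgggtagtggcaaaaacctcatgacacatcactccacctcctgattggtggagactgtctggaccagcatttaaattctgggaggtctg
Cd68, chr11:69666171-69666420, minus strand: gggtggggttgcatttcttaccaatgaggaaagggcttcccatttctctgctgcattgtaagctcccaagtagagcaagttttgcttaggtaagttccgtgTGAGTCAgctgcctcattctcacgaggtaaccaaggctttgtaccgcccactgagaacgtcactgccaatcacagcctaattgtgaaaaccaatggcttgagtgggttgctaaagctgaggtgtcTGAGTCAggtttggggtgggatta
Axl, chr7:25788734-25788983, minus strand: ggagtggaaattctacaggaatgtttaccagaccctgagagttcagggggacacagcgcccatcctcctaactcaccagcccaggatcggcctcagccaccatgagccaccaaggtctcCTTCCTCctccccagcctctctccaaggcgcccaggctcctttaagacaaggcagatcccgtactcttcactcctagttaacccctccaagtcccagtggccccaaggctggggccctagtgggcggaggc
In Trem2 the AP-1 letters lie at -9 to -3 from the start and the PU.1 letters, on the minus strand, at -41 to -35. In Spp1 the PU.1 letters lie at -113 to -107, and in Cd68 the AP-1 letters lie at -149 to -143 and -24 to -18. In Axl the PU.1 letters, on the minus strand, lie at -131 to -125. A match describes the letters and is not evidence of binding.

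In naïve nerve the adaptor Tyrobp was the most abundant of the 10 per transcript length, and the lipase Lpl and the pump subunit Atp6v0d2 were at the bottom. In fragments per kilobase of transcript scaled to library depth (FPKM, n = 2 pools), naïve MON held 230 ± 103 (SD) of Tyrobp, 38.3 ± 6.65 of Gpnmb, 33 ± 6.58 of Cd68, 29.8 ± 6.65 of Axl and 28.8 ± 3.25 of Trem2. The last 4 lay within each other's spread. Below them were Spp1 (18.4 ± 6.08), Cst7 (4.89 ± 3.03), Clec7a (3.52 ± 1.32) and Lpl (1.18 ± 0.495). Of these, Cst7 and Clec7a did not differ beyond their spread, and Spp1 overlapped Axl. Atp6v0d2 had 1 estimated count over both naïve MON libraries. In naïve UON the order was Tyrobp (129 ± 14.1 FPKM), Axl (87.9 ± 0.424), Spp1 (33.2 ± 2.05), Gpnmb (21.8 ± 2.47), Cd68 (21 ± 5.3) and Trem2 (13.9 ± 0.141), with Gpnmb and Cd68 within each other's spread. Clec7a (6.72 ± 0.898), Cst7 (3.5 ± 2.81), Lpl (0.86 ± 0.311) and Atp6v0d2 (0.0918 ± 0.0894) followed, with Cst7 overlapping both Clec7a and Lpl. Naïve retina had another order, led by Spp1 (33.3 ± 0.566 FPKM), then Tyrobp (8 ± 0.757), Lpl (3.7 ± 0.156) and Axl (3.48 ± 0.29), the last pair within each other's spread. Gpnmb (2.74 ± 0.297), Cd68 (1.56 ± 0.269), Trem2 (0.919 ± 0.864), Cst7 (0.639 ± 0.233), Clec7a (0.138 ± 0.0247) and Atp6v0d2 (0.0384 ± 0.0544) came after them. Trem2 overlapped Cd68, Cst7, Clec7a and Atp6v0d2.

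Between naïve tissues, 7 of the 10 (Trem2, Tyrobp, Cst7, Clec7a, Gpnmb, Cd68 and Axl) were higher in each nerve segment than in retina. Against the retina 7 of 10 were called higher in MON, where 27.6% of all genes tested were called in either direction. In UON 7 were called higher and 1 lower, where 31.7% of all genes were called. Trem2, the lipid receptor, was at 43.6 and 69.4 CPM in the female and male pools of naïve MON, 26.1 and 22.3 in UON and 1.84 and 1.45 in retina, and exceeded the retina by a log2 fold change of 5.16 ± 0.39 (SE) in MON (adjusted p = 0.000102) and 3.91 ± 0.36 in UON (adjusted p = 0.000217). Lpl ran the other way, with 14.7 and 15.4 CPM in retina against 4.89 and 3.23 in UON (log2 fold change -1.84 ± 0.45, adjusted p = 0.0168) and 4.65 and 6.89 in MON (-1.32 ± 0.44, adjusted p = 0.0623). Spp1 was at 46.5 and 47.1 CPM in retina, 55 and 64.9 in UON and 45.6 and 24.2 in MON, and was not called between any of them. Between the nerve segments 1 of 10 was called, where 9.63% of all genes were: Axl, the receptor for dead cells, was at 425 and 459 CPM in UON and 192 and 116 in MON (log2 fold change 1.52 ± 0.26, adjusted p = 0.0131). Trem2 had a log2 fold change of -1.24 ± 0.33 (adjusted p = 0.0576) there and Gpnmb -0.84 ± 0.2 (adjusted p = 0.0447), inside the fold limit. By DESeq2 2 of 10 were called there (Trem2 and Axl), beside 17% of all genes. The calls between the segments changed when the female naïve MON library was left out. Naïve MON is then a single pool, and the share of all genes called in that fit was not taken.

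**Figure D1:**
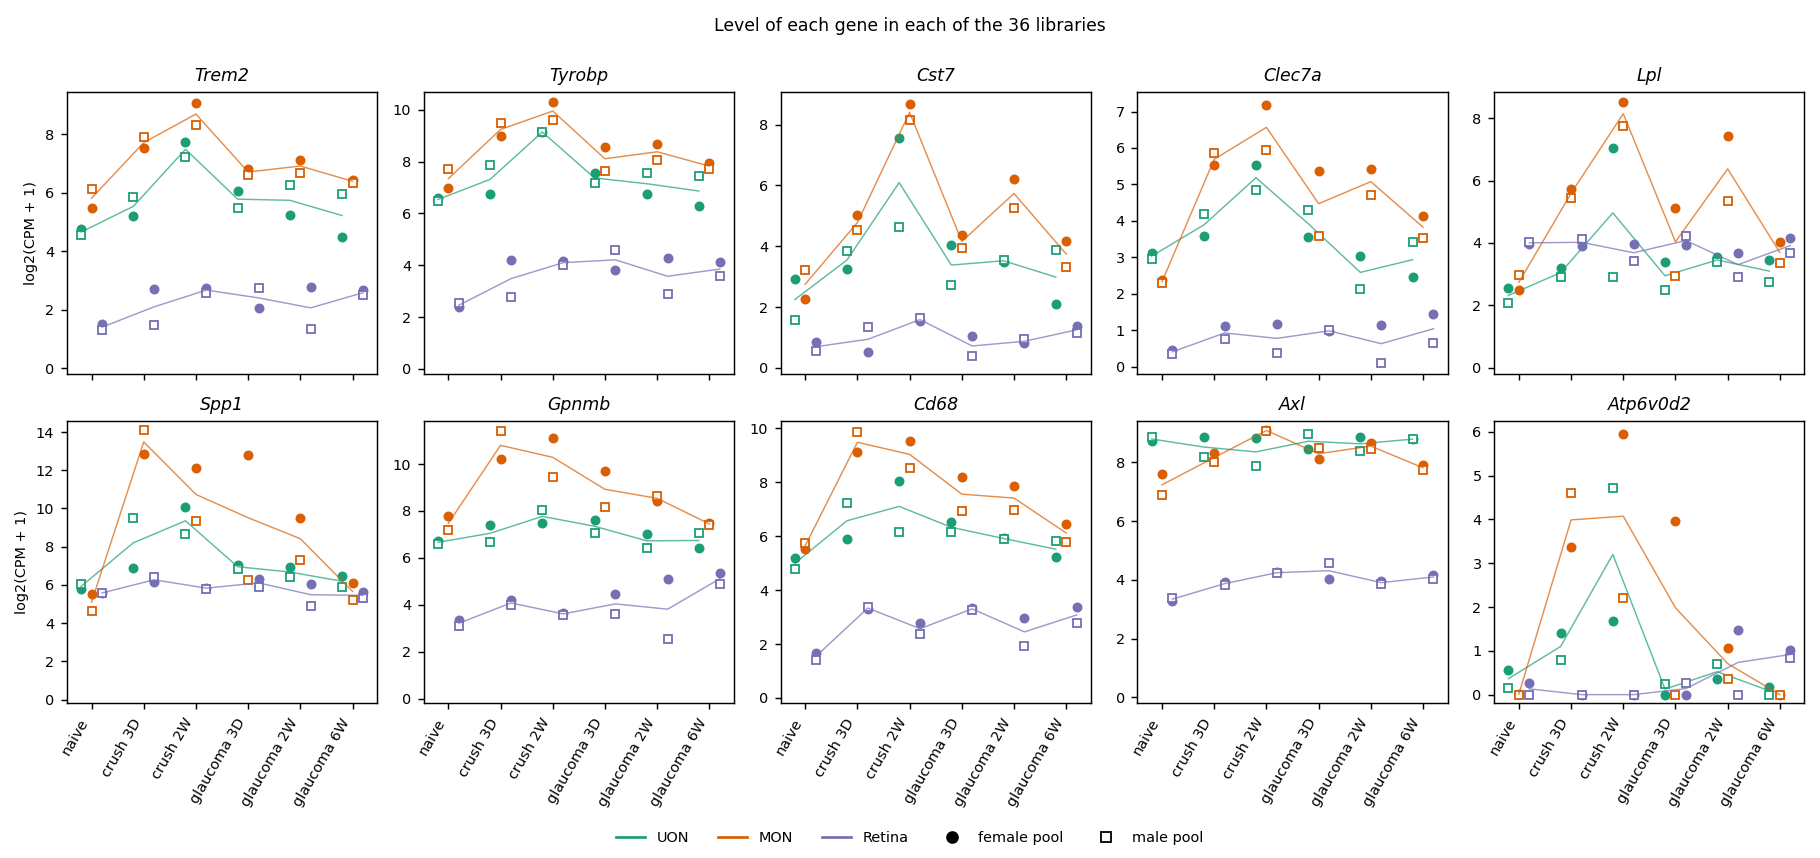
Level of each gene as log2(CPM + 1) on the vertical axis against the 6 groups on the horizontal axis, with filled circles for female and open squares for male pools, colours for the 3 tissues and lines through the means of the 2 pools. In MON the levels at 3 D and 2 W after crush lie above naïve for all 10 genes, while Spp1 and Atp6v0d2 at 3 D of glaucoma are high in the female pool (7020 and 14.6 CPM) and not in the male pool (75.4 and 0 CPM).

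Among the injury groups, edgeR called genes of the 10 against naïve in crushed MON only. At 3 D, 7 of 10 genes rose (Trem2, Clec7a, Lpl, Spp1, Gpnmb, Cd68 and Atp6v0d2), where 4.26% of all genes were called. At 2 W, 9 of 10 rose (all but Gpnmb), where 2.72% of all genes were called. Atp6v0d2, with 1 estimated count over both naïve libraries, passed the filter on low counts only through the crush libraries. Its calls are therefore no independent support for a rise of the set. The same holds where it is counted among the 10 in other comparisons of injured MON. The median log2 fold change of the 10 was 3.36 at 3 D and 4.15 at 2 W, beside medians of -0.0049 and 0.0514 over all genes tested. Both medians of the 10 include Atp6v0d2 and would be lower without it. In bulk RNA, more cells of a type and more RNA per cell cannot be told apart. By DESeq2 with the same terms 9 genes were called at 3 D and 10 at 2 W, where it called 12% and 9.08% of all genes.

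The receptors and the adaptor Tyrobp were all called at 2 W, and Trem2 and Clec7a also at 3 D. Trem2 went from 43.6 and 69.4 CPM in naïve MON (female and male) to 181 and 239 at 3 D and 533 and 316 at 2 W. Both crush groups lay above both naïve libraries, with log2 fold changes of 1.98 ± 0.41 (adjusted p = 0.0422) and 3.02 ± 0.43 (adjusted p = 0.0237). Its adaptor Tyrobp followed at a higher level, 125 and 207 CPM in naïve MON, 504 and 722 at 3 D (log2 fold change 1.97 ± 0.43, adjusted p = 0.0516) and 1260 and 774 at 2 W (2.75 ± 0.45, adjusted p = 0.0347). Clec7a, the dectin-1 receptor, started far lower, at 4.18 and 3.89 CPM, and reached 45.2 and 56.8 at 3 D and 145 and 60.4 at 2 W. Its log2 fold changes of 3.78 ± 0.44 (adjusted p = 0.00987) and 4.71 ± 0.46 (adjusted p = 0.0109) were larger than those of Trem2 at both times, a difference that was not tested. Axl had the smallest log2 fold changes of the 10, from 192 and 116 CPM to 314 and 259 at 3 D (log2 fold change 1.02 ± 0.3, adjusted p = 0.107) and 551 and 528 at 2 W (1.95 ± 0.3, adjusted p = 0.0308).

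Of the lysosomal and lipid genes, Cd68 and Lpl were called at both times and Cst7 at 2 W. Cd68, the lysosomal glycoprotein, was high at both times, from 45.7 and 52.8 CPM to 557 and 924 at 3 D (log2 fold change 3.99 ± 0.48, adjusted p = 0.0114) and 738 and 374 at 2 W (3.59 ± 0.48, adjusted p = 0.0204). Cst7, the inhibitor of lysosomal proteases, was at 3.82 and 8.42 CPM in naïve MON and at 31.4 and 22.3 at 3 D, and then at 406 and 281 at 2 W. Its log2 fold change was 2.24 ± 0.49 at 3 D (adjusted p = 0.0511) and 5.91 ± 0.57 at 2 W (adjusted p = 0.0109). Lpl, the lipoprotein lipase, was at 4.65 and 6.89 CPM in naïve MON, 52.1 and 42.9 at 3 D (log2 fold change 3.12 ± 0.41, adjusted p = 0.0124) and 368 and 216 at 2 W (5.72 ± 0.46, adjusted p = 0.00884). For both genes every 2 W library lay above every 3 D library, and the step from 3 D to 2 W was 3.67 ± 0.5 for Cst7 (adjusted p = 0.0603) and 2.6 ± 0.39 for Lpl (adjusted p = 0.0664).

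Gpnmb, the glycoprotein of lysosomes and melanosomes, was at 217 and 144 CPM in naïve MON, 1180 and 2680 at 3 D (log2 fold change 3.6 ± 0.67, adjusted p = 0.0311) and 2230 and 697 at 2 W (3.06 ± 0.65, adjusted p = 0.0567). All 4 crush libraries lay above both naïve libraries, but the female and male pools changed places between the times. Of the 11 melanocyte and pigment epithelium markers 6 were tested and 0 called at either time, and the list summed to 64.9 and 50.6 CPM in naïve MON, 51.4 and 21.9 at 3 D and 40 and 29.6 at 2 W. Tyr, the enzyme of melanin synthesis, was at 0 in all of these libraries. Spp1, osteopontin, made the largest change among the genes with a measurable naïve level. It rose from 45.6 and 24.2 CPM to 7450 and 17600 at 3 D (log2 fold change 8.83 ± 1.1, adjusted p = 0.0117) and lay at 4400 and 660 at 2 W (6.08 ± 0.99, adjusted p = 0.034). At 3 D it had become the most abundant of the 10 per transcript length, at 7420 ± 3790 FPKM against 914 ± 163 for Tyrobp. At 2 W the values were 1630 ± 1740 and 1620 ± 643 FPKM, within each other's spread. Atp6v0d2 went from 0.0159 and 0 CPM in naïve MON to 9.41 and 23.2 at 3 D and 60.7 and 3.59 at 2 W. Over both pools this was 1292 estimated counts at 3 D and 1144 at 2 W against 1, a ratio, scaled for library totals, of 1730 (95% interval 311 to 6.835e+04) and 2114 (379 to 8.349e+04), intervals that cover counting error only and take each estimated count as a read (adjusted p = 0.0249 and 0.0353). The 2 W pools differed by more than the pools at 3 D did.

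**Figure D2:**
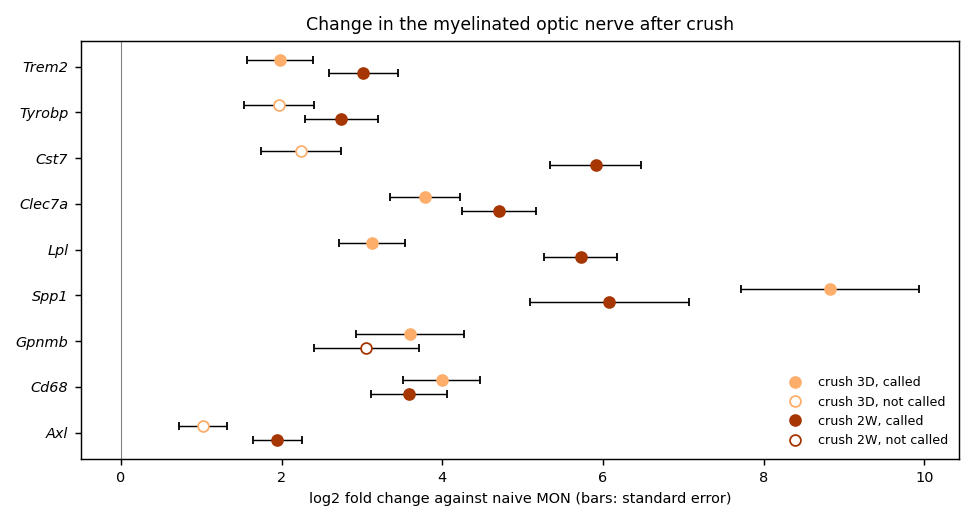
Log2 fold change against naïve MON (horizontal axis) of 9 genes (vertical axis) at 3 D and 2 W after crush, with bars for the standard error and filled points for called changes. Atp6v0d2 is left out because its naïve level is 1 estimated count, and Spp1 lies farthest out at 3 D (8.83) while Cst7 and Lpl move outward from 3 D to 2 W.

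These calls rest on 2 naïve pools. Without the female naïve MON library 0 of 10 genes were called at 3 D and 2 at 2 W (Cst7 and Lpl), and without the male one 4 at 3 D (Cst7, Clec7a, Lpl and Cd68) and 3 at 2 W (Cst7, Clec7a and Lpl). The log2 fold change stayed above 0 for all 10 genes in each of these fits and under every other setting tried.

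Set against the pan-myeloid markers, all genes but Axl lay above both naïve pools at 2 W, by amounts that differed from gene to gene. Gpnmb did so narrowly, at 1.12 in the male pool against 1.11 in the female naïve pool. The measure is the log2 CPM of a gene minus the mean log2 CPM of the 12 markers in the same library, and Atp6v0d2 is left out because its naïve level is 1 estimated count. For Tyrobp the mean over pools was 0.668 in naïve MON, 0.92 at 3 D and 1.25 at 2 W, and for Trem2 -0.883, -0.616 and -0.0176. At 3 D both pools of each of these genes lay within the range of its naïve pools. Axl lay at 0.56, -0.161 and 0.378. At 2 W its mean and male pool (0.717) lay within the range of its naïve pools (0.187 to 0.932), and its female pool (0.0383) below it. Spp1 moved from -1.6 to 5.16 at 3 D and 2.04 at 2 W, Clec7a from -4.64 to -2.65 and -2.15, Gpnmb from 0.804 to 2.48 and 1.59, and Cd68 from -1.04 to 1.17 and 0.34. Cst7 lay at -4.14, -3.59 and -0.299, its pools at 3 D overlapping the naïve pools, and Lpl at -4.15, -2.75 and -0.56, above both naïve pools at 3 D as well. These differences are a description and were not tested, and how many of all genes lay above both naïve pools on this measure was not counted.

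**Figure D3:**
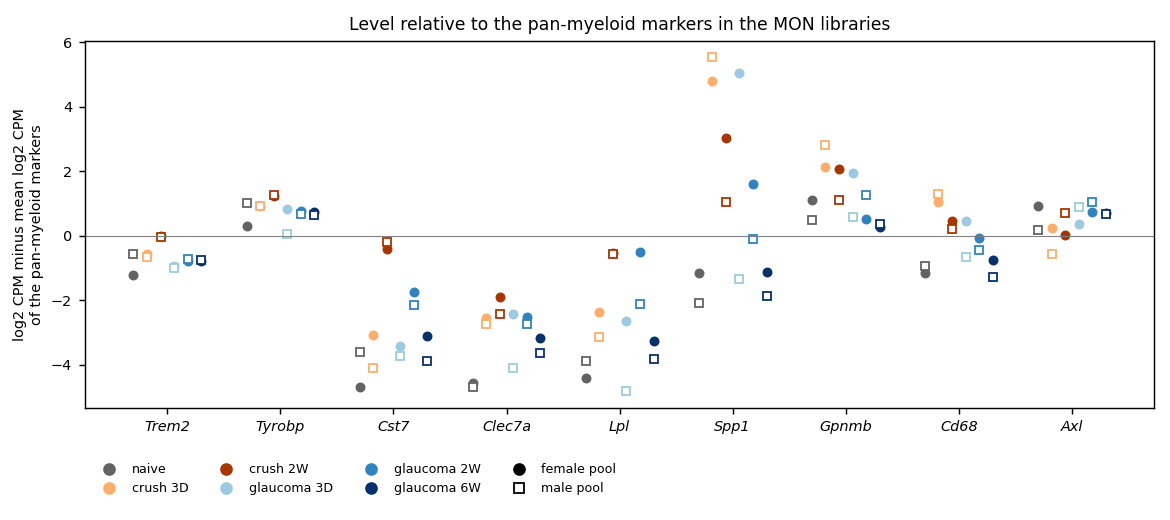
Log2 CPM of 9 genes minus the mean log2 CPM of the pan-myeloid markers in the same library (vertical axis) in the 12 MON libraries, coloured by group, with circles for female and squares for male pools. The mean of Spp1 moves from -1.6 in naïve MON to 5.16 at 3 D after crush and that of Cst7 from -4.14 to -0.299 at 2 W, while Trem2 moves from -0.883 to -0.0176 at 2 W.

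Other genes of the same programme were counted in crushed MON, where 4.26% of all genes were called at 3 D and 2.72% at 2 W. Of 23 other disease-associated microglia genes, 11 rose at 3 D (median log2 fold change 1.54) and 13 at 2 W (median 2.14), and none fell. Lilrb4a, an inhibitory receptor, was at 2.08 and 2 CPM in naïve MON, 124 and 254 at 3 D and 170 and 95.1 at 2 W. Igf1, the growth factor, went from 1.29 and 3.24 CPM to 48.5 and 45 and then 138 and 61.1, and Itgax, the integrin CD11c, from 0.859 and 3 CPM to 12.9 and 31.4 and then 79.3 and 43.9. Below TREM2, 11 of 14 genes of TYROBP and SYK signalling rose at 3 D (median 2.08) and 8 of 14 at 2 W (median 2), among them Lat2 (log2 fold change 2.55 ± 0.5 and 2.56 ± 0.48), Vav1 (2.41 ± 0.36 at 3 D), Pik3ap1 (2.4 ± 0.37 at 3 D and 2.4 ± 0.36 at 2 W) and Blnk (2.65 ± 0.37 at 2 W), adaptors and exchange factors of that cascade.

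The lists of engulfment, lipid handling and acidification also held called genes, except the V-ATPase. Of 17 tested phagocytic receptors, bridging ligands and engulfment genes, 4 rose at 3 D (median 0.624) and 2 at 2 W (median 1.01). The scavenger receptor Msr1 was at 0.35 and 0.53 CPM in naïve MON, 104 and 289 at 3 D and 56.5 and 7.75 at 2 W, and at 3 D Cd36 (5.8 ± 1.3) and Stab1 (4.21 ± 0.53) also rose, and Dock2, an activator of RAC, rose at 3 D (2.5 ± 0.36) and 2 W (2.58 ± 0.36). Of 12 tested genes of lipid uptake and efflux, 3 rose at 3 D and 2 at 2 W: Plin2, which coats lipid droplets, from 31.5 and 38.1 CPM to 554 and 1270 at 3 D and 310 and 162 at 2 W, Abca1, the cholesterol exporter, from 55.9 and 35.2 CPM to 212 and 219 and then 463 and 319, and Angptl4, an inhibitor of lipoprotein lipase, at 3 D (log2 fold change 3.31 ± 0.47). Of 10 MiT/TFE factors and fusion genes 1 rose at 3 D, Acp5, the tartrate-resistant phosphatase of osteoclasts, from 0.891 and 0 CPM to 41.3 and 122, and none was called at 2 W. None of the other 17 V-ATPase subunits was called at either time, with all 17 log2 fold changes above 0 at 3 D (median 0.658) and 14 of 17 at 2 W (median 0.343).

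Markers of other cell types were counted in the same comparisons. Of 12 monocyte and border macrophage markers, 7 rose at 3 D (median log2 fold change 5.22) and 3 at 2 W (median 1.87). Their summed level was 142 and 177 CPM in naïve MON, 3880 and 8890 at 3 D and 7770 and 2070 at 2 W (female and male). Ccr2, the receptor of recruited monocytes, was at 0.461 and 0.294 CPM in naïve MON, 6.91 and 32.2 at 3 D and 11.6 and 6.89 at 2 W, while Ly6c2 was at 1.61 and 1.35, 2.79 and 4.05, and 1.96 and 1.74 CPM. Of 10 homeostatic microglia markers, 1 rose at 3 D (Fcrls), and the median log2 fold change was 0.196 at 3 D and 1.13 at 2 W. P2ry12, the purine receptor of resting microglia, was at 34.4 and 17.4 CPM in naïve MON, 27.1 and 12.4 at 3 D and 35.3 and 33.1 at 2 W. Pan-myeloid markers had 5 of 12 called higher at 3 D and 8 of 12 at 2 W. Neutrophil markers (1 of 6 tested called at each time) summed to 22 to 23 CPM in naïve MON and 51.1 to 121 after crush, and T cell markers (0 of 7 called) to no more than 16 CPM. How much of the rise of the 10 genes came with recruited cells was not tested.

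**Figure D4:**
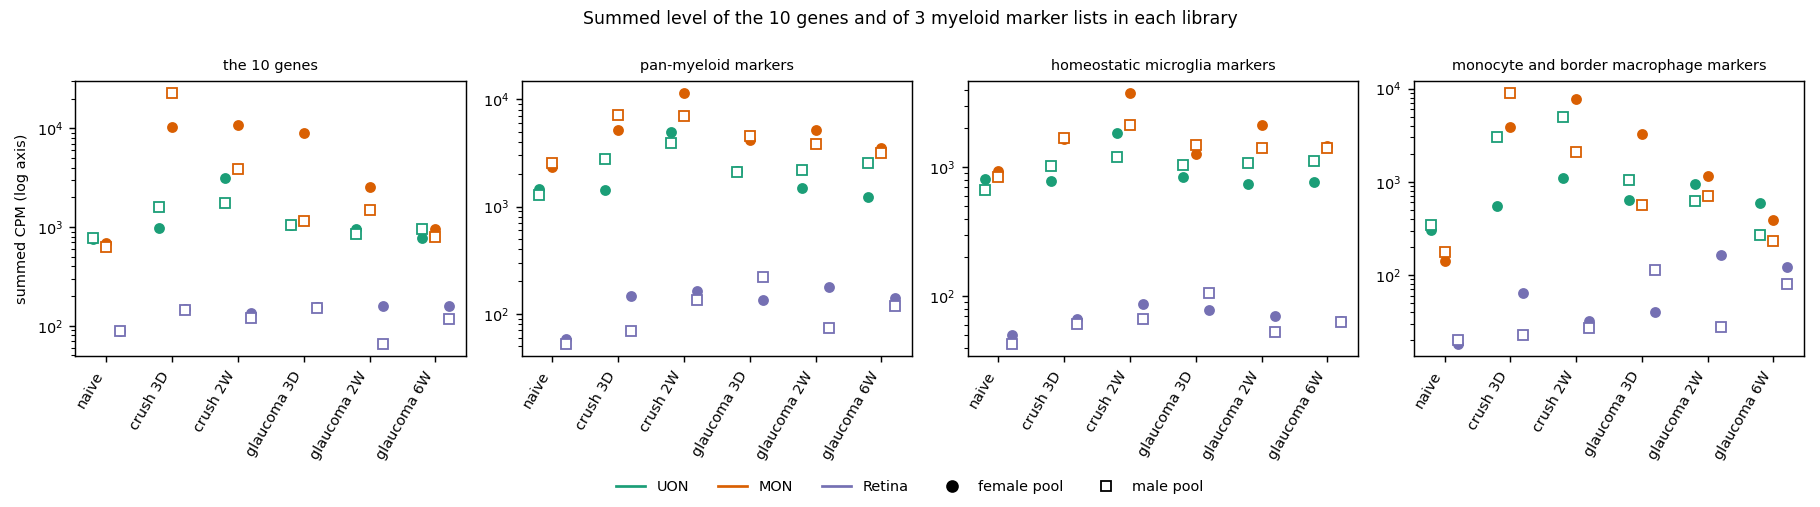
Summed CPM on a log axis (vertical) of the 10 genes and of the pan-myeloid, homeostatic microglia and monocyte and border macrophage marker lists in each library, by group (horizontal), with colours for tissues and circles and squares for female and male pools. In MON after crush the monocyte and border macrophage list rises from 142 to 177 CPM to 2070 to 8890 CPM, and the homeostatic list from 833 to 928 CPM to 1650 to 3740 CPM. A sum is weighted toward the most abundant genes of its list, and the other genes of the list need not move with it.

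The step from 3 D to 2 W after crush was tested in each tissue, and no gene of the 10 was called by edgeR in any. Over all genes 0.075% were called in MON, 0.00468% in UON and 0.0485% in retina. In MON 5 of 10 had an unadjusted p under 0.05, beside 12.5% of all genes, and DESeq2 called 2 (Cst7 and Lpl), beside 5.77%. In UON 4 of 10 had such a p, beside 5.5% of all genes, and DESeq2 called 4 (Trem2, Tyrobp, Cst7 and Atp6v0d2), beside 1.74%. In retina 3 of 9 had such a p, beside 6.37%, and DESeq2 called 0, beside 1.01%. With 1 of the 4 MON crush libraries left out, 3 to 5 genes were called, but 1 time is then a single pool assumed to vary like the other groups, and the fit of all libraries called 0.

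In UON no gene of the 10 was called after crush by edgeR, where 0% of all genes were called at 3 D and 0.0281% at 2 W. At 3 D 3 of 10 had an unadjusted p under 0.05, beside 3.07% of all genes, and DESeq2 called 0 (1.02% of all genes). At 2 W 9 of 10 did, beside 9.27%, and DESeq2 called 7 (Trem2, Tyrobp, Cst7, Clec7a, Lpl, Cd68 and Atp6v0d2, beside 2.72% of all genes). Trem2 was at 26.1 and 22.3 CPM in naïve UON, 35.6 and 57.3 at 3 D and 213 and 148 at 2 W, so that all crush libraries lay above naïve (2 W log2 fold change 2.9 ± 0.39, adjusted p = 0.157). Tyrobp was at 96.3 and 87.3 CPM in naïve UON and at 561 and 565 at 2 W (2.61 ± 0.41, adjusted p = 0.192). Axl, already high in naïve UON (425 and 459 CPM), was at 452 and 234 at 2 W (-0.45 ± 0.36, adjusted p = 0.721).

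The 2 pools of UON at 2 W after crush differed in the levels of Cst7, Lpl, Cd68 and Atp6v0d2, which lay above both naïve libraries in each pool. The female pool was high in Cst7 (187 against 23.8 CPM in the male pool), Lpl (130 against 6.45) and Cd68 (265 against 70.6), while the male pool was high in Atp6v0d2 (25.5 against 2.19 CPM). Naïve UON held 6.64 and 1.95 CPM of Cst7, 4.89 and 3.23 of Lpl, 35.4 and 26.9 of Cd68 and 0.482 and 0.118 of Atp6v0d2, so that Lpl in the male pool was 1.59 times the naïve mean and in the female pool 32 times. Monocyte and border macrophage markers summed to 1100 CPM in the female pool and 4950 in the male pool, against 305 and 342 in naïve UON, and oligodendrocyte markers to 25000 and 3540 CPM, against 28700 and 22100. Without the male pool 1 gene was called (Lpl), and without the female pool 1 (Atp6v0d2).

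**Figure D5:**
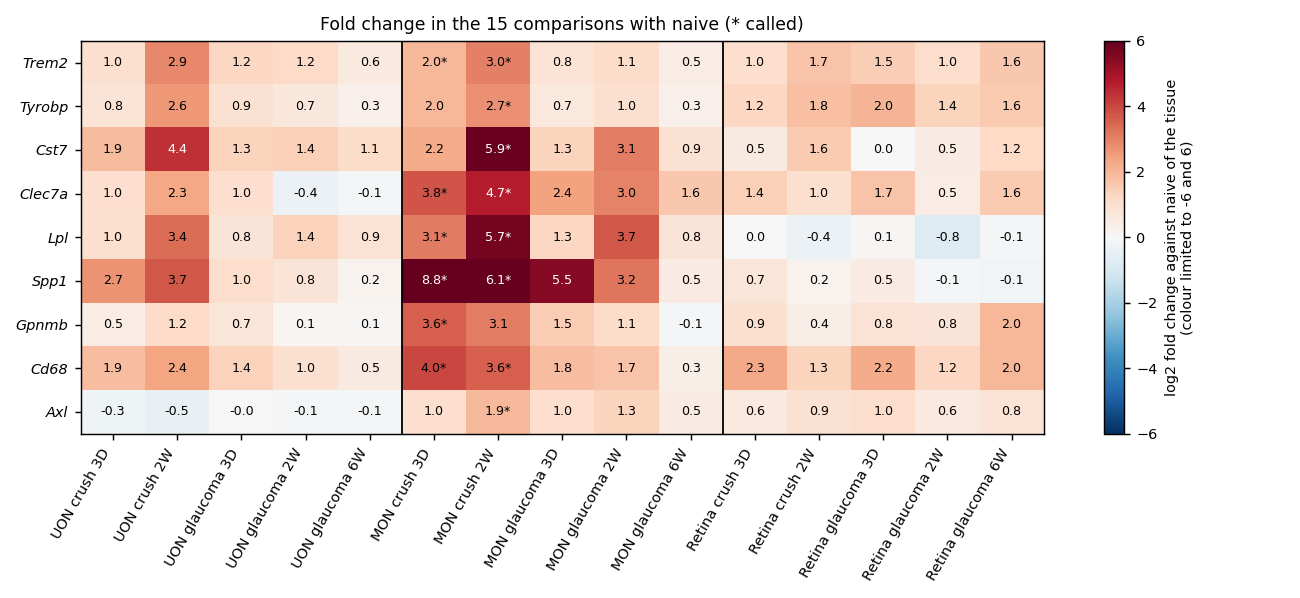
Log2 fold change against naïve of the same tissue for 9 genes (rows) in the 15 injury comparisons (columns), with colour limited to -6 and 6 and a star for called changes. The stars lie only in the crush columns of MON, and Atp6v0d2 is left out because it is near 0 in most naïve libraries.

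In microbead glaucoma of the nerve edgeR called no gene of the 10, where it called 0% of all genes in UON and MON at 3 D, 2 W and 6 W. In MON 8 of 10 at 3 D, 9 at 2 W and 1 at 6 W had an unadjusted p under 0.05, beside 8.07%, 8.78% and 4.91% of all genes. DESeq2 called 5 at 3 D (Clec7a, Spp1, Gpnmb, Cd68 and Axl, beside 2.35% of all genes), 5 at 2 W (Cst7, Clec7a, Lpl, Cd68 and Axl, beside 2.71%) and 0 at 6 W (0.255%). The medians of the 10 log2 fold changes were 1.42, 2.36 and 0.475. Atp6v0d2 stands among the 10 in these counts and medians, but passed the filter on low counts only through glaucoma libraries. It is therefore no independent support for a rise of the set. Clec7a was at 4.18 and 3.89 CPM in naïve MON, 40 and 11 at 3 D, 42.3 and 25.3 at 2 W (log2 fold change 3 ± 0.46, adjusted p = 0.232) and 16.5 and 10.5 at 6 W, above naïve in all 6 glaucoma libraries. Lpl was at 33.8 and 6.75 CPM at 3 D, 170 and 39.3 at 2 W (3.71 ± 0.76, adjusted p = 0.293) and 15.3 and 9.28 at 6 W, against 4.65 and 6.89 in naïve MON, and Cst7 at 19.7 and 14.4, 72.6 and 37.6 (3.07 ± 0.57, adjusted p = 0.293), and 17 and 8.98, against 3.82 and 8.42. For both the 2 W libraries lay above those of the other times.

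The female pool of MON at 3 D of glaucoma stood apart from the male pool. It held 7020 CPM of Spp1 against 75.4, 825 of Gpnmb against 284, 292 of Cd68 against 121, 40 of Clec7a against 11, 33.8 of Lpl against 6.75 and 14.6 of Atp6v0d2 against 0. Spp1 there was 201 times the naïve mean of 34.9 CPM in the female pool and 2.16 times in the male pool. Trem2 (112 and 95.2 CPM) and Cst7 (19.7 and 14.4) differed far less. Monocyte and border macrophage markers summed to 3270 CPM in the female pool and 565 in the male pool, and homeostatic microglia markers to 1260 and 1480. Whether a cell type accounts for the split was not tested. Without the male pool 1 gene was called at 3 D (Spp1), and without the female pool none was.

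In UON glaucoma the medians of the 10 log2 fold changes were 0.967, 0.769 and 0.267 at 3 D, 2 W and 6 W. At 3 D and 2 W 3 of 10 had an unadjusted p under 0.05 and at 6 W 0, beside 3.87%, 3.57% and 2.01% of all genes. DESeq2 called 1 at 3 D (Cd68, beside 0.528% of all genes), 0 at 2 W (0.295%) and 0 at 6 W (0.148%). Cd68 ranged from 36.4 to 90.8 CPM over the 6 glaucoma libraries (median 59.5), all above the naïve 35.4 and 26.9. Trem2 ranged from 21.2 to 75 CPM (median 52.5) around a naïve 26.1 and 22.3, and Axl from 332 to 502 CPM (median 440) around 425 and 459, so that both overlapped naïve. Between times of glaucoma, edgeR called none of the 10 in any tissue. It called 0% of all genes at 2 W and 6 W against 3 D in UON and MON, and in retina 0.00429% and 0.0129%. In MON 2 and 4 of the 10 had an unadjusted p under 0.05 at 2 W and 6 W against 3 D, in UON 1 and 2 and in retina 2 and 1. The shares over all genes were 5.03% and 4.96% in MON, 4.78% and 4.54% in UON and 9.71% and 8% in retina. DESeq2 called 1 at 2 W (Lpl, higher) and 2 at 6 W (Gpnmb and Cd68, lower) in MON, beside 0.725% and 0.845% of all genes. It called 0 in UON (0.93% and 0.614%) and retina (0.584% and 0.571%).

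Crush was set directly against glaucoma at 3 D and 2 W, and edgeR called no gene of the 10 in any tissue. It called 0.0162% and 0.0485% of all genes in MON at 3 D and 2 W, 0% and 0.0418% in UON, and 0.0081% and 0.113% in retina. In MON at 2 W all 10 log2 differences were above 0, 9 of them with an unadjusted p under 0.05, beside 7.51% of all genes, and DESeq2 called 5 (Trem2, Tyrobp, Cst7, Clec7a and Cd68), beside 1.76%. Trem2 was at 533 and 316 CPM after crush and 139 and 102 in glaucoma (difference 1.87 ± 0.34, adjusted p = 0.205), and Cst7 at 406 and 281 against 72.6 and 37.6 (2.72 ± 0.46, adjusted p = 0.143). The groups did not overlap for either gene, and how many of all genes did not was not counted. At 3 D in MON 7 of 10 had an unadjusted p under 0.05 (10.4% of all genes) and DESeq2 called 1 (Cd68), beside 3.26%. In UON 1 and 9 of 10 had one at 3 D and 2 W (1.07% and 10.2% of all genes), with 0 and 5 called by DESeq2 (0.0286% and 2.53%). In retina 1 and 0 of 10 had one (4.34% and 8.12%) and DESeq2 called none (0.181% and 0.756%).

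In the retina, where the myeloid markers are few, the 10 genes were low and none was called by edgeR after crush, where 0.0221% of all genes were called at 3 D and 0.313% at 2 W. In glaucoma the shares of all genes called were 0.00429%, 0% and 0.00858% at 3 D, 2 W and 6 W, again with none of the 10. Atp6v0d2 did not pass the filter on low counts for crushed retina, so 9 genes were tested there, and 5 and 4 of them had an unadjusted p under 0.05 at 3 D and 2 W, beside 6.34% and 8.99% of all genes. In glaucoma 4, 4 and 5 of 10 did, beside 6.09%, 6.29% and 5.67%. DESeq2 called Cd68 at 3 D after crush (beside 0.649% of all genes), Trem2, Tyrobp and Cd68 at 2 W (1.49%), Tyrobp, Cd68 and Axl at 3 D of glaucoma (0.684%), none at 2 W (0.449%) and Cd68 at 6 W (0.517%).

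Cd68 was at 2.16 and 1.66 CPM in naïve retina and ranged from 2.78 to 9.48 over the 10 injured retinas (median 7.81). Tyrobp was at 4.22 and 4.75 CPM and ranged from 5.78 to 23 (median 15.7), and Axl at 8.81 and 9.52 and from 13.1 to 23 (median 15.4). For these 3 genes every injured library lay above both naïve libraries, and how many of all genes did so was not counted. The log2 fold changes at 2 W after crush were 1.34 ± 0.29 for Cd68 (adjusted p = 0.173), 1.79 ± 0.44 for Tyrobp (adjusted p = 0.234), 0.93 ± 0.19 for Axl (adjusted p = 0.166) and 1.69 ± 0.44 for Trem2 (adjusted p = 0.278). Trem2 overlapped naïve (1.84 and 1.45 CPM against 1.55 to 5.83, median 5.17), as did Cst7 (0.799 and 0.461 against 0.307 to 2.13, median 1.14) and Clec7a (0.38 and 0.277 against 0.0817 to 1.72, median 0.978). Gpnmb was at 9.19 and 7.45 CPM against 4.82 to 39.7 (median 15.9), highest in both pools at 6 W and the female pool at 2 W of glaucoma. Lpl and Spp1, which neurons also make, were not called: Lpl ranged from 6.58 to 17.8 CPM (median 14.1) around a naïve 14.7 and 15.4, and Spp1 from 29.1 to 82.8 (median 58.2) around 46.5 and 47.1, all 4 crush libraries lying above naïve. Pan-myeloid markers summed to 58.1 and 52.5 CPM in naïve retina and to 69.3 to 222 in the injured retinas.

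Whether the response differed between tissues was tested as an interaction. The crush response of Lpl in MON exceeded that in retina by 3.07 ± 0.47 on the log2 scale at 3 D (adjusted p = 0.0252) and 6.04 ± 0.49 at 2 W (adjusted p = 0.00147), and that of Spp1 by 7.93 ± 1.1 (adjusted p = 0.0174) and 5.95 ± 1 (adjusted p = 0.0402). These 2 of 10 genes were called at each time, where 0.882% and 0.622% of all genes were. With the pool of mice as a block, 3 genes were called at 3 D (Lpl, Spp1 and Atp6v0d2) and 4 at 2 W (Clec7a, Lpl, Spp1 and Atp6v0d2), beside 0.618% and 0.512% of all genes. Atp6v0d2 was at 0 CPM in all 4 crushed retina libraries and passed the filter on low counts only through crushed MON. Its calls here are therefore no independent support for a difference between tissues. DESeq2 called 6 and 7, beside 8.68% and 5.8% of all genes. Without the female crushed retina library 0 of 10 were called at 3 D, and without the male naïve MON library 1 (Lpl). At 2 W Lpl alone was called without the female naïve MON library or either crushed retina library. Trem2 and Tyrobp, which were positive in both tissues, had differences of 1.19 ± 0.65 (adjusted p = 0.521) and 0.79 ± 0.67 (adjusted p = 0.712) at 2 W.

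Between MON and UON edgeR called no difference in response for the 10, where it called 0.012% of all genes at 3 D and 0% at 2 W after crush, and 6 and 3 of 10 had an unadjusted p under 0.05, beside 6.93% and 10.9% of all genes. DESeq2 called 3 (Clec7a, Spp1 and Gpnmb) and 2 (Clec7a and Axl), beside 1.49% and 3.33%. With the pool of mice as a block Spp1 was called at 3 D (log2 difference 6.16, adjusted p = 0.0142), beside 0.04% of all genes. The crush response of UON differed from that of retina for 0 of 10, where 0.0115% and 0.0689% of all genes were called at 3 D and 2 W. There 0 and 4 of 10 had an unadjusted p under 0.05, beside 3.96% and 8.42% of all genes, and DESeq2 called 0 and 3 (Lpl, Spp1 and Atp6v0d2), beside 0.629% and 1.9%. For glaucoma, 0% of all genes and none of the 10 were called in the 3 pairs of tissues at 3 D, 2 W and 6 W. At the 3 times, 3, 3 and 0 of 10 had an unadjusted p under 0.05 for MON against UON, 1, 4 and 2 for MON against retina and 1, 2 and 3 for UON against retina. The shares over all genes were 5.86%, 6.18% and 3.1%, then 6.2%, 7.19% and 8.46%, and last 5.21%, 4.27% and 4.13%. DESeq2 called 1 in each pair at 2 W (0.548%, 0.806% and 0.261% of all genes). It called 0 at 3 D (0.274%, 0.495% and 0.547%) and at 6 W (0.149%, 1.22% and 0.249%).

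Over the 12 MON libraries the 10 genes went up and down together to different degrees. Pearson's r of log2 CPM between pairs of them ranged from 0.498 (Spp1 and Axl) to 0.983 (Trem2 and Tyrobp), a description over libraries that share the injury groups. Among 13729 genes, those with the pattern most like Trem2 were the complement genes C1qa (r = 0.986) and C1qb (0.979) and the tetraspanin Cd37 (0.973). For Tyrobp they were Cd300c2 (0.981), Atox1 (0.978) and Ptpn6 (0.973). Cd68 was nearest to Gas2l3 (0.994), Fblim1 (0.991) and Lyz2 (0.99), and Lyz2 (0.962), with Lilr4b (0.969) and Nfkbiz (0.966), was also nearest to Atp6v0d2. Spp1 was nearest to Morrbid (0.984), Lilr4b (0.981) and Ifi30 (0.978), and Gpnmb to Rnf128 (0.983), Galns (0.983) and Grn, the lysosomal progranulin (0.979). Lpl was nearest to Ccl3 (0.968), Tlr2 (0.963) and Slamf9 (0.954), Clec7a to Tlr1 (0.98), B3gnt7 (0.977) and Tent5c (0.974), Cst7 to Cxcl14 (0.965), Rtn4rl1 (0.957) and Adamts5 (0.948), and Axl to Nfatc1 (0.972), Icam1 (0.959) and Nrcam (0.952).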

How the data were processed

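Per the authors' methods and processing notes, HISAT2 (v2.2.1) placed the paired reads on GRCm38, and StringTie (v1.3.0) then used the Gencode M25 annotation. The deposited estimated counts per gene came from StringTie's count script and are not normalized; a read pair can add several counts. The authors' deposited FPKM per gene are StringTie's. In 13 libraries a few FPKM just below 0 were set to 0. Strand was not given in the sources used here.

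Counts were fitted with edgeR 4.0.16 in R 4.3.3: TMM scaling, filterByExpr (minimum count 10, minimum total 15), group and sex as terms, the quasi-likelihood test and Benjamini-Hochberg adjustment. Each tissue and injury model was fitted with its naïve libraries, and tissue differences as interactions. DESeq2 1.42.0 was the main alternative. Both tools were tested on simulated data. SE is the log2 fold change over the square root of F. CPM use TMM factors over all 36 libraries, relative levels log2 CPM with a prior count of 2. Replicates are pools of 2 mice, and the methods say that the same mice gave all tissues, which pairs the pools: the differences between female and male pools correlated across 16136 genes between tissues by -0.0629 to 0.246. Depth, in units of 1e+06 counts, was 16.2 to 78.1. A mean CPM of at least 1 was needed for pattern neighbours.

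The 10 genes and the lists were chosen with earlier results of these data known. Named besides the 10 were, of each pathway list, the 3 called genes with the largest change in MON at 3 D and 2 W after crush, fixed markers and the 3 nearest patterns. Fcrls was named after its values were seen, and the ratio for Atp6v0d2 and the ratios of single pools to the naïve mean were chosen after seeing the data. Transcript counts were not used here, and the calls of the homeostatic markers at 2 W are not reported here.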

Additional observations from a re-analysis of the deposited data

Results flagged for a closer look

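In 4 tests a gene of the 10 responded differently to crush in MON and in retina. The log2 difference in response was 3.07 for Lpl and 7.93 for Spp1 at 3 D, and 6.04 for Lpl and 5.95 for Spp1 at 2 W. Each passed the test of the difference itself. In crushed retina Lpl lay at 9.63 to 16.6 CPM, around the naïve 14.7 and 15.4, and Spp1 at 54.7 to 82.8 CPM, above the naïve 46.5 and 47.1.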

How the results depend on the processing

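With 2 pools a group, calls near the threshold depend on the tool and on single libraries. Numbers give how many of the 10 genes were called. DESeq2 called more than edgeR: in UON 7 at 2 W after crush (4 against 3 D, 5 against glaucoma) and 1 at 3 D of glaucoma; in MON 2 at 2 W against 3 D after crush, 5 at 3 D and at 2 W of glaucoma (1 at 2 W and 2 at 6 W against 3 D), and 1 and 5 for crush against glaucoma at 3 D and 2 W; in retina 1 and 3 at 3 D and 2 W after crush and 3 and 1 at 3 D and 6 W of glaucoma; and 2 between naïve UON and MON. For differences in response it called 6 and 7 (MON against retina), 3 and 2 (MON against UON) at 3 D and 2 W after crush, 3 for UON against retina at 2 W after crush, and 1 for each pair at 2 W of glaucoma. With all 36 libraries in one fit, 5 were called in UON at 2 W after crush, beside 1.17% of all genes. In that fit 1 was called in MON at 2 W against 3 D after crush, beside 0.954%. With no filter on low counts, 1 was called in retina at 3 D after crush (beside 0.133% of all genes) and 2 in MON at 3 D of glaucoma (0.143%). That setting called 3 each in MON at 2 W of glaucoma (0.158%), UON at 2 W after crush (0.147%) and MON at 2 W against 3 D after crush (2.51%). Between naïve UON and MON it called 2 (7.84%). Without the sex term 2 were called in MON at 2 W against 3 D after crush, beside 0.605% of all genes. Between naïve UON and MON 2 were called without it, beside 10.1%, which is also the fit with no replicate block. With no limit on the fold 2 were called between naïve UON and MON, where the share over all genes was not taken. RLE scaling moved no count by over 1.5 times. The pool of mice as a replicate block gave 1 for MON against UON at 3 D after crush and 4 for MON against retina at 2 W, and changed no other count by over 1.5 times.

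With 1 library left out, its group is a single pool assumed to vary like the others, and the share over all genes was not taken. The counts then ranged from 0 to 9 and 2 to 10 in MON at 3 D and 2 W after crush, 3 to 5 between those times, 0 to 1 in UON at 2 W after crush, against naïve, 3 D and glaucoma, 0 to 1 in MON glaucoma at 3 D and 2 W and at 6 W against 3 D, 0 to 2 for MON crush against glaucoma at 3 D, and 1 to 4 between naïve nerve segments. The differences in response ranged from 0 to 5 and 1 to 7 for MON against retina after crush at 3 D and 2 W, 0 to 3 for MON against UON at 2 W after crush, 0 to 1 for both pairs at 3 D of glaucoma, and 0 to 2 for UON against retina at 2 W after crush. Without the female crushed MON library of 3 D, 5 genes differed from retina at 3 D; without the male one of 2 W, 7 did at 2 W. A sign changed in 287 of 4413 recomputed values of single genes, 0 of them called. Among the comparisons recomputed gene by gene these were Axl in UON at 2 W after crush (-0.891 to 0.0302, the latter without the male naïve UON library) and, in MON at 3 D of glaucoma, Tyrobp (-0.00959 without the female naïve library) and Atp6v0d2 (fitted values -0.758 without the female glaucoma library to 9.68 without the male one). The causes were not tested. Low counts limit Atp6v0d2 and the retina, where Clec7a and Cst7 lay near 1 CPM.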
